A study of Homo sapiens with 6 samples.

Results

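The urokinase system and the membrane serine proteases were followed here through 9 genes, chosen by name, of the 20263 rows of the count table: PLAU, PLAUR, PLAT, SERPINE2, SERPINB2, ST14, SPINT1, SPINT2 and HGFAC. All 9 have a row, and 6 held enough counts to be tested. RNA sequencing was done on HCCLM3 cells, an established human hepatocellular carcinoma line with metastatic behaviour. The cells received CC-885 or the solvent DMSO for 24 h, with 3 libraries in each group. Both groups were otherwise untreated cells of the same line in serum-containing medium, and no dose of CC-885 is given in the sources used here. CC-885 is a small molecule that turns the CRBN ubiquitin ligase against proteins such as GSPT1, a factor of translation termination. The study asked how the compound acts on growth and spread of these cells.

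Plasminogen is a circulating proenzyme that becomes plasmin, a protease of fibrin and of the pericellular matrix, when PLAU (urokinase) or PLAT (tissue plasminogen activator) cuts it. PLAUR is the lipid-anchored receptor that holds urokinase on the cell surface, and the serpins SERPINE2 and SERPINB2 trap both activators. ST14 (matriptase) is a serine protease anchored in the membrane of epithelial cells, where it can cleave pro-urokinase and pro-hepatocyte growth factor. SPINT1 and SPINT2 are Kunitz-type membrane inhibitors that restrain it, and HGFAC is a secreted activator of hepatocyte growth factor made by hepatocytes.

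The members moved in different directions. Transcripts of the urokinase receptor and of the serpin SERPINE2 rose with CC-885, those of urokinase, matriptase and the inhibitor SPINT2 fell, and PLAT did not pass the test. Of the 6 tested members 2 were higher and 3 lower (edgeR quasi-likelihood test, adjusted p under 0.05 by Benjamini-Hochberg over 13444 genes). In the same test 52.6% of all genes were called, 25.8% as higher and 26.8% as lower, and the members' 5 calls are to be read against that background. The sizes of the members' changes are given below with their place among all genes.

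Total counts ran from 30432509 to 39809131 per library. All levels are library-scaled counts (CPM) with TMM factors (0.967 to 1.06), which set each gene against the others of its library, and total RNA per cell is not measured. In bulk RNA, fewer cells of a type and less RNA per cell cannot be told apart. Nothing in the labels states that replicates were separate cultures, and the p-values then reflect a library-to-library spread that could be technical. The label of a liver cancer cell was checked against markers. Of 10 hepatocyte markers 5 had no count in any library, ALB and APOB among them, and all 10 together gave 0.232 to 0.572 CPM with CC-885 and 1.23 to 1.55 CPM with DMSO. That difference lay almost wholly in HNF4A (0.214 against 1.25 CPM, edgeR adjusted p = 0.00156). Of 4 markers of hepatocellular carcinoma, AFP and GPC3 had no count either. EPCAM was detected and not called (3.64 against 3.46 CPM, edgeR adjusted p = 0.82). SPP1 had no more than 4 counts in any library and was not tested. The 4 epithelial markers, mainly KRT8 and KRT18, summed to 1365 to 1658 CPM with CC-885 and 1808 to 2214 CPM with DMSO. KRT8 was called lower (log2 fold change -0.49, edgeR adjusted p = 0.0236), and KRT18 was not called. CDH1 was low (3.78 against 4.50 CPM, not called), and KRT19 had only 2 counts, in DMSO replicate 1. Of 5 fibroblast markers LUM had no count and the sums overlapped (151 to 185 CPM with CC-885, 157 to 187 CPM with DMSO), but single markers moved in opposite directions. COL1A1 was higher (155 against 104 CPM, log2 fold change 0.58), and PDGFRB (14.1 against 70.9 CPM, -2.33) and DCN (0.126 against 1.21 CPM, -3.23) were lower. The sums of 4 immune markers overlapped (2.26 to 3.23 and 2.19 to 3.25 CPM), and PTPRC, CD3E and LYZ among them had no count. The sum of 4 endothelial markers was 3.11 to 4.93 CPM with CC-885 and 0.872 to 1.35 CPM with DMSO, with KDR at 0 in every library and PECAM1 at 0 in the CC-885 libraries. CDH5 (2.11 against 0.168 CPM, log2 fold change 3.63) and VWF (1.88 against 0.929 CPM, 1.01) were higher. The part of these marker sums in the results was not tested.

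Promoter sequences of members are shown as a description, and no link between their motifs and the changes in transcripts was tested. The RefSeq table (GRCh38.p14) had entries for 6 of the 9 members, with 9 annotated starts in all. Each window runs from 250 bases before to 50 bases after a start, 5′ to 3′ in the direction of the gene. Capitals mark matches to the motifs searched on both strands, which were the AP-1 element TGANTCA, the cyclic AMP response element TGACGTCA, the GC box GGGCGG, the ETS element CGGAAG, the TATA box TATAAA, the CCAAT box CCAAT, the E-box CACGTG and the NF-kB element. The windows belong to PLAUR (chr19:43670120-43670419, minus strand), the second annotated start of PLAU (chr10:73910882-73911181, plus strand), the first listed start of SERPINE2 (chr2:224031429-224031728, minus strand) and SERPINB2 (chr18:63887455-63887754, plus strand).
PLAUR: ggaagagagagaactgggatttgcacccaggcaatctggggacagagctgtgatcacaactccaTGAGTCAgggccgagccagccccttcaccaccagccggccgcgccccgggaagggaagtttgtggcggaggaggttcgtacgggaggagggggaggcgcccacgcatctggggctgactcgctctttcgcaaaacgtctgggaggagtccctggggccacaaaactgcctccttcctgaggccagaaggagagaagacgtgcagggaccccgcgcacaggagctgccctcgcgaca
PLAU: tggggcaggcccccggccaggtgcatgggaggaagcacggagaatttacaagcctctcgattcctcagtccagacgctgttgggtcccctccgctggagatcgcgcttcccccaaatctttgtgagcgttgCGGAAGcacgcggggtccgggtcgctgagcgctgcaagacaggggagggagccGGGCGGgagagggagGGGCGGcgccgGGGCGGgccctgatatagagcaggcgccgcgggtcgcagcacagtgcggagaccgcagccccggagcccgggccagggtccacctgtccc
SERPINE2: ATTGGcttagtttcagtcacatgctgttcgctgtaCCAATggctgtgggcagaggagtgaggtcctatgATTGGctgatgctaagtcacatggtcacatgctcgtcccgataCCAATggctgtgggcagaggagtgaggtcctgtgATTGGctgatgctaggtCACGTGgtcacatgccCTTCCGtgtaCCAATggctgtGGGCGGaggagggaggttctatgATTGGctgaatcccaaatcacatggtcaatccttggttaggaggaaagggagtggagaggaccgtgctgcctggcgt
SERPINB2: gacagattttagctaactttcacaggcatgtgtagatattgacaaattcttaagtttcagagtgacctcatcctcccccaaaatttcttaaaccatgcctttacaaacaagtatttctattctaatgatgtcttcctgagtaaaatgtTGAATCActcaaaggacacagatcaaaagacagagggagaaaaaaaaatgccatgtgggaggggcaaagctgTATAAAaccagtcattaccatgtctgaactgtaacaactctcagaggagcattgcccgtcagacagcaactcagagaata

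The PLAUR window held a single match, an AP-1 element whose first base lay at -186 from the start. Of 35097 promoter windows of this length, 7.71% held that element. The PLAU window had 3 GC boxes, at -66, -51 and -40, and an ETS element at -119, and the other PLAU window had only a CCAAT box at -182. GC boxes stood in 44.9% and ETS elements in 19.5% of all windows. The SERPINE2 window held 7 CCAAT boxes (34.6% of windows held at least 1), a GC box, an ETS element on the minus strand and an E-box. The other SERPINE2 window had GC boxes at -230 and -183 and no other match. SERPINB2 had an AP-1 element at -102 and a TATA box at -30, which 11.5% of windows held. SPINT1 had an AP-1 element at -6 and GC boxes at -110, -56 and -21 in its first listed window and no match in the other. A match is a description of letters and not a bound site, and the counts do not show which start was used.

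PLAU, which encodes the urokinase proenzyme, fell. Its counts were 75, 54 and 73 in CC-885 replicates 1, 2 and 3 and 223, 226 and 167 in DMSO replicates 1, 2 and 3. Scaled, this was 2.50, 1.40 and 2.12 CPM in the treated libraries and 5.82, 6.16 and 5.13 CPM in the controls. All CC-885 libraries lay below all DMSO libraries, and CC-885 replicate 2 was the lowest of them. The means were 2.01 ± 0.556 and 5.70 ± 0.526 CPM (SD, n = 3), a fall of 2.85-fold (log2 fold change -1.51, SE 0.23, edgeR adjusted p = 0.000276). Without CC-885 replicate 2 the log2 fold change was -1.30 (edgeR adjusted p = 0.000888). PLAU shares 771 exon bases with C10orf55 on the opposite strand, and whether strand was used in counting is not stated, so reads of this pair cannot be told apart. C10orf55 itself was assigned 0, 0 and 6 counts with CC-885 against 7, 8 and 10 with DMSO.

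PLAT, the other plasminogen activator and best known as the clot-dissolving enzyme of vessel walls, had the smallest change of the tested members. It stood at 24.7, 21.5 and 23.6 CPM in CC-885 replicates 1, 2 and 3 and at 21.7, 20.5 and 21.0 CPM in the DMSO libraries. The groups overlapped, since CC-885 replicate 2 lay just below DMSO replicate 1. The means were 23.3 ± 1.62 and 21.1 ± 0.620 CPM (SD, n = 3), and the log2 fold change of 0.14 (95% interval -0.14 to 0.43) did not pass (edgeR adjusted p = 0.374). The upper bound of the interval stays under a change of 2-fold.

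Per kilobase of exon, a scale on which genes can be compared, PLAT was the more abundant activator transcript in every library. It made up 78.4, 76.4 and 80.0% of the sum of PLAT and PLAU in DMSO replicates 1, 2 and 3 and 90.6, 93.7 and 91.6% after CC-885, with no overlap between the groups. The sum itself was 9.89, 8.33 and 9.36 CPM per kilobase with CC-885 against 10.0, 9.72 and 9.53 CPM per kilobase with DMSO. The sums overlapped, as CC-885 replicate 1 lay between DMSO replicates 1 and 2.

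PLAUR, the urokinase receptor, rose while its ligand fell. The counts were 1536, 1938 and 1591 with CC-885 against 1058, 860 and 942 with DMSO, which gave 51.2, 50.4 and 46.2 CPM against 27.6, 23.4 and 28.9 CPM. Every CC-885 library lay well above every DMSO library. The means of 49.3 ± 2.65 and 26.7 ± 2.87 CPM (SD, n = 3) differed by 1.85-fold (log2 fold change 0.89, SE 0.13, edgeR adjusted p = 0.000226). Within a library, PLAUR exceeded PLAU per kilobase by 25.0, 43.8 and 26.6 times with CC-885 and by 5.79, 4.65 and 6.89 times with DMSO. The ratio of receptor to ligand transcripts was 5.40-fold higher with CC-885 (geometric means), and the groups did not overlap.

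**Figure D1:**
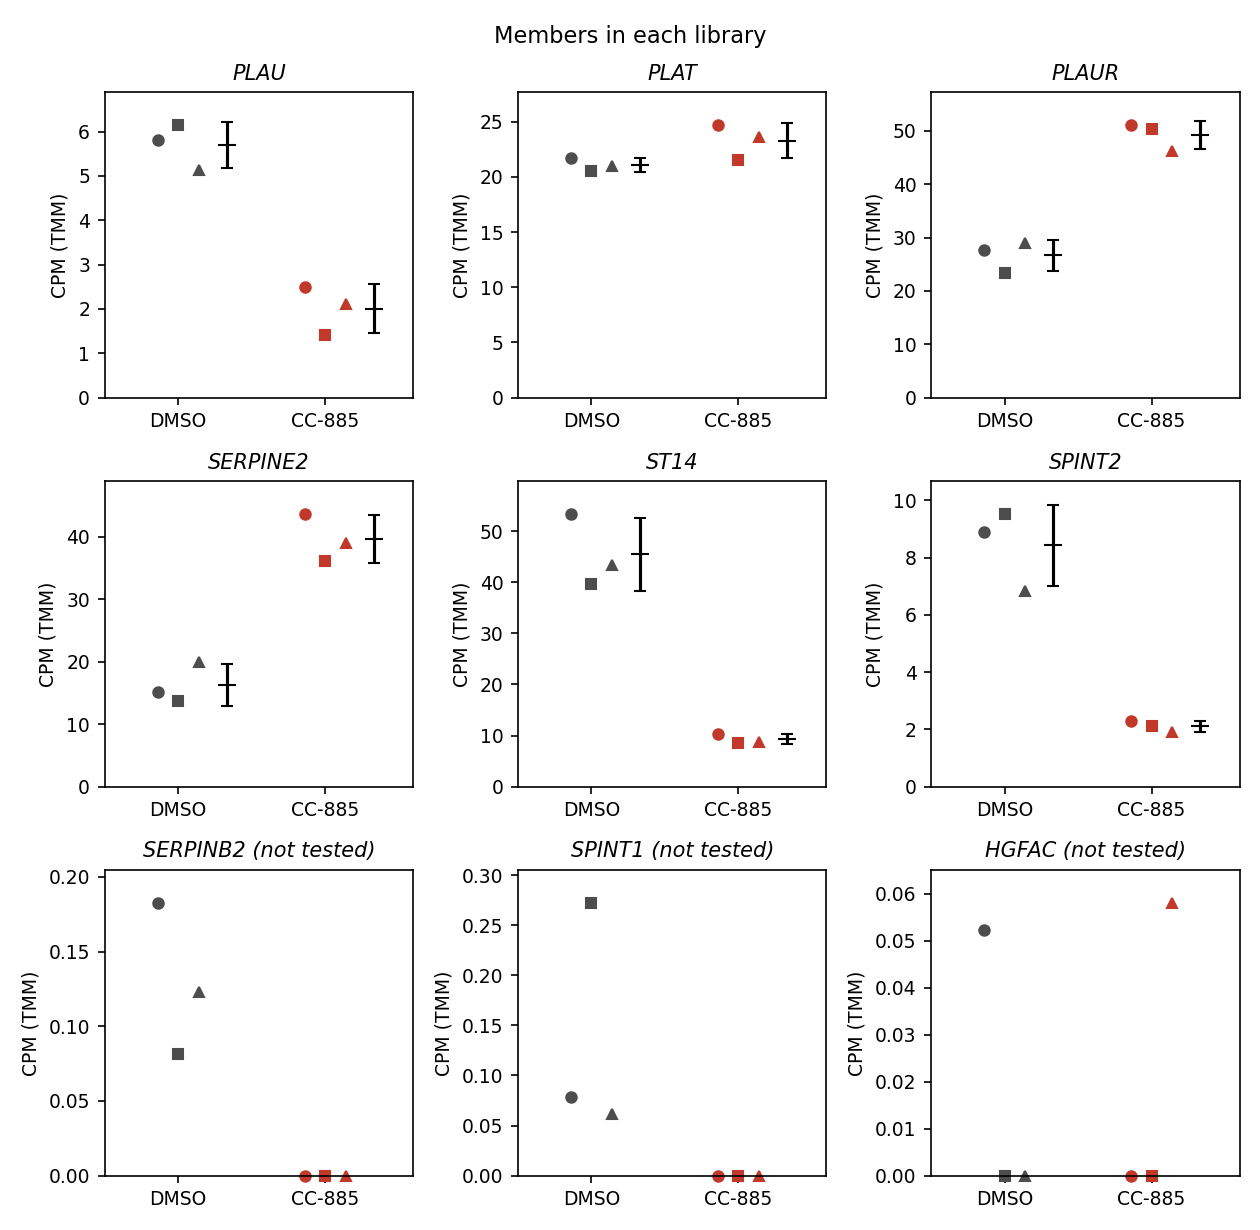
CPM of each member (vertical axes, scaled per gene from 0) in the 3 DMSO libraries (grey) and the 3 CC-885 libraries (red). Circles, squares and triangles stand for replicates 1, 2 and 3, and the bars for mean ± SD of the tested members. PLAUR and SERPINE2 sat higher with CC-885 without overlap, PLAU, ST14 and SPINT2 lower, and PLAT overlapped. SERPINB2, SPINT1 and HGFAC stayed under 0.3 CPM in every library.

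SERPINE2, an inhibitor of both activators, rose. This serpin, also called protease nexin-1, inhibits thrombin, urokinase and tissue plasminogen activator at the cell surface. It reached 43.7, 36.1 and 39.0 CPM with CC-885 and stood at 15.1, 13.7 and 20.0 CPM with DMSO. The groups were far apart, and DMSO replicate 3 was the highest of its group. The means were 39.6 ± 3.82 and 16.3 ± 3.30 CPM (SD, n = 3), 2.43-fold higher with CC-885 (log2 fold change 1.28, SE 0.16, edgeR adjusted p = 8.4e-05). SERPINE2 stood at 14.9, 22.0 and 15.7 times the PLAU level per kilobase after CC-885 and at 2.22, 1.90 and 3.33 times in the controls. Per kilobase of exon, SERPINE2 stood below PLAT with DMSO and above it with CC-885, although PLAT stayed ahead with CC-885 when levels were divided by the longest transcript. By exon length SERPINE2 was at 1.55, 1.47 and 1.45 times PLAT with CC-885 and at 0.610, 0.587 and 0.834 times with DMSO.

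SERPINB2, a mostly intracellular serpin against urokinase that macrophages and keratinocytes make on activation, was close to absent. No treated library held a count of it, and the DMSO libraries held 7, 3 and 4. Its DMSO mean was 0.129 CPM, and the 0 counts with CC-885 allow up to 3 counts per library (0.0780 to 0.0999 CPM). Such limits cover counting error only and are too low if fragments were counted more than once (66.2% of counts from 1 to 19 were even), so no fold is given. SERPINB2 did not pass the filter on low counts. With no filter it was called lower (edgeR adjusted p = 0.0338).

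ST14, which encodes matriptase, had the largest change of the tested members. Its counts were 312, 332 and 303 with CC-885 against 2045, 1453 and 1411 with DMSO. In CPM these were 10.4, 8.63 and 8.80 against 53.4, 39.6 and 43.3. The CC-885 libraries lay close together and far under the DMSO libraries, of which replicate 1 was the highest. The means of 9.28 ± 0.971 and 45.4 ± 7.14 CPM (SD, n = 3) differed by 4.90-fold (log2 fold change -2.29, SE 0.16, edgeR adjusted p = 1.52e-06). By log2 fold change ST14 ranked 222 from the bottom of the 13444 tested genes.

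SPINT2, the Kunitz inhibitor that also restrains hepsin and other membrane proteases, fell with ST14. It had 69, 81 and 66 counts with CC-885 against 341, 350 and 223 with DMSO, or 2.30, 2.11 and 1.92 CPM against 8.90, 9.53 and 6.84 CPM. No CC-885 library came near a DMSO library, and DMSO replicate 3 was the lowest of its group. The means were 2.11 ± 0.190 and 8.43 ± 1.41 CPM (SD, n = 3), a fall of 4.0-fold (log2 fold change -2.0, SE 0.19, edgeR adjusted p = 1.28e-05). SPINT2 shares 225 exon bases with ENSG00000267748 on the same strand, a gene with 15, 20 and 15 counts with CC-885 against 37, 37 and 21 with DMSO that was not called (log2 fold change -0.85, edgeR adjusted p = 0.0552). The ratio of protease to inhibitor per kilobase did not separate the groups. ST14 exceeded SPINT2 by 2.30, 2.09 and 2.34 times with CC-885 and by 3.05, 2.11 and 3.22 times with DMSO, and these values overlapped.

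SPINT1, the inhibitor most closely paired with matriptase in epithelia, was barely detected. No treated library held a count, and the DMSO libraries held 3, 10 and 2. The DMSO mean was 0.137 CPM, with most of the counts in DMSO replicate 2, and no fold is given because the limit for 0 counts may be too low, as for SERPINB2. It was not tested, and with no filter on low counts it was called lower (edgeR adjusted p = 0.035). HGFAC was at the edge of detection in both groups, with 2 counts in CC-885 replicate 3, 2 in DMSO replicate 1 and 0 in the other 4 libraries. With no filter it was not called (edgeR adjusted p = 0.982).

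**Figure D2:**
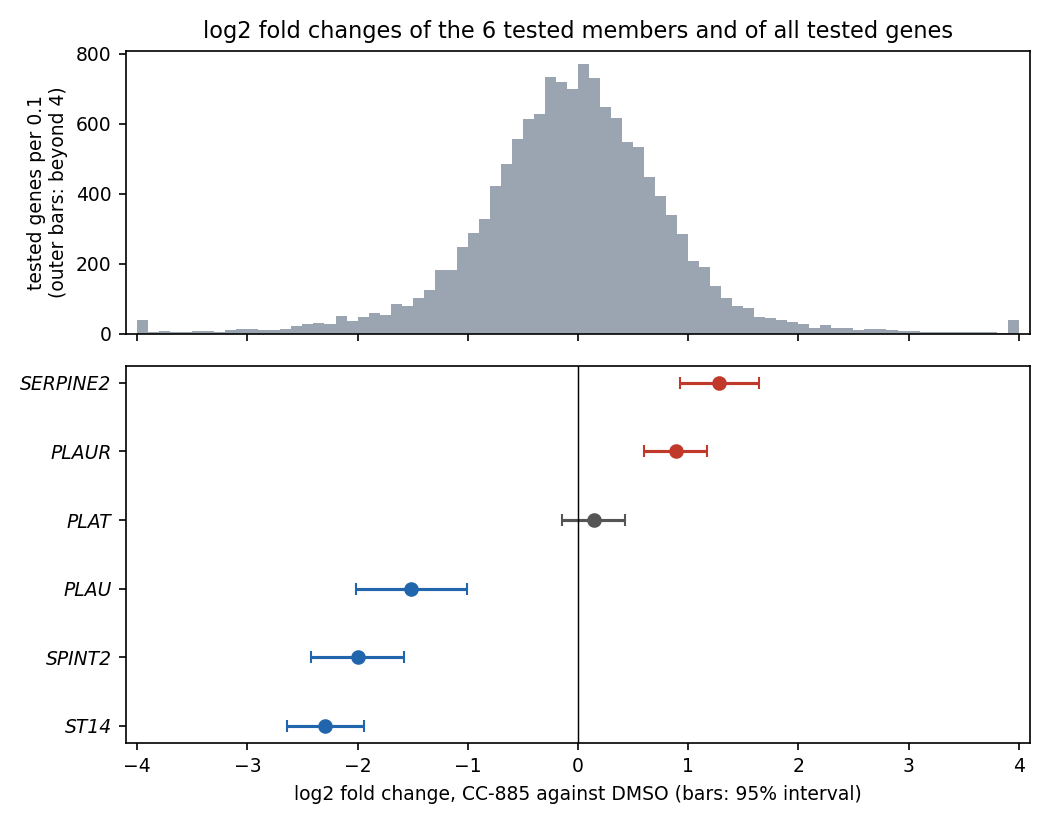
Lower panel: log2 fold change of CC-885 against DMSO for the 6 tested members with 95% intervals, red for higher, blue for lower and grey for not called. Upper panel: the number of all tested genes at each log2 fold change on the same axis, where values beyond 4 in either direction are drawn in the outermost bars. ST14 (-2.29) and SPINT2 (-2.0) lie in the lower tail and SERPINE2 (1.28) in the upper one, while the interval of PLAT includes 0.

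Set among all tested genes, ST14, SPINT2 and PLAU lay at percentiles 1.65, 2.48 and 4.78 of the log2 fold changes, PLAT at 59.8, PLAUR at 88.9 and SERPINE2 at 95.1. Calls by at least 2-fold took in 8.23% of tested genes as higher and 10.3% as lower. SERPINE2 was such a call among the higher genes and ST14, SPINT2 and PLAU among the lower. PLAUR passed the test with a change under 2-fold. The libraries of the groups did not overlap for 5 of the 6 tested members, against 61.1% of all tested genes.

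The order of the members' levels changed with treatment. Per kilobase of exon, ST14 (12.8 ± 2.02 CPM per kilobase) and PLAUR (12.1 ± 1.30) led with DMSO and did not differ beyond their spread. PLAT (7.64 ± 0.225), SERPINE2 (5.17 ± 1.05), SPINT2 (4.68 ± 0.780) and PLAU (2.12 ± 0.196) followed, of which SERPINE2 and SPINT2 overlapped. With CC-885 the order was PLAUR (22.4 ± 1.20), SERPINE2 (12.6 ± 1.21), PLAT (8.44 ± 0.588), ST14 (2.62 ± 0.274), SPINT2 (1.17 ± 0.106) and PLAU (0.747 ± 0.207), with no overlap between neighbours. All these are means ± SD of 3 libraries. When each level was divided by the longest transcript instead, PLAUR led ST14 with DMSO, and PLAT led SERPINE2 and PLAU led SPINT2 with CC-885.

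**Figure D3:**
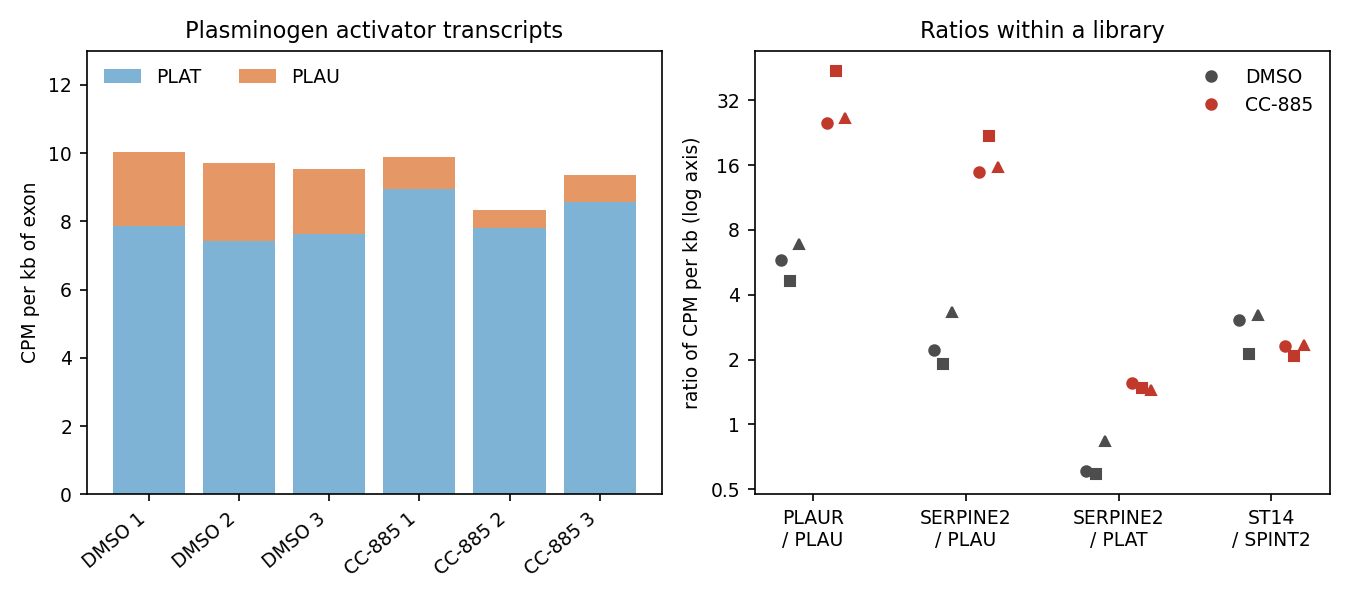
Left: stacked bars of PLAT and PLAU in CPM per kilobase of exon for each library, starting at 0. Right: ratios of CPM per kilobase within a library on a log axis, grey for DMSO and red for CC-885, with circles, squares and triangles for replicates 1, 2 and 3. The PLAU portion shrank with CC-885 while the bars overlapped in height (8.33 to 9.89 and 9.53 to 10.0). PLAUR over PLAU, SERPINE2 over PLAU and SERPINE2 over PLAT lay higher with CC-885, and ST14 over SPINT2 overlapped.

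Position was looked at through the members' neighbours, none of which is itself a member. Among the protein-coding genes of the count table, 2 on each side of each of the 5 called members, 15 were tested. Of these, 2 had the same call as the member, 2 the opposite call and 11 no call. Over all tested genes 52.6% were called, 25.8% as higher and 26.8% as lower. ENSG00000267748, a neighbour of SPINT2 with no call, shares 225 exon bases with it, so their counts are not independent. The neighbours of ST14 that were tested, PRDM10, APLP2 and ZBTB44, had log2 fold changes of 0.07, -0.21 and -0.05 and none was called.

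The genes whose profile over the 6 libraries came nearest to a member were found by the root mean square distance between centred log2 CPM values among genes with a mean of at least 5 CPM (10803 candidates for PLAU). Nearest to ST14 were SELENBP1 (distance 0.0672), ALPI (0.0831) and ALDH3A1 (0.0904). PLAUR was most like ZNF496 (0.0339), REXO1 (0.0346) and STK40 (0.0365), and PLAU most like VMAC (0.0712), AMY2B (0.0782) and SEPHS2 (0.107). SERPINE2 lay nearest to DTX2 (0.0771) and SPINT2 nearest to FDXR (0.0653). These distances describe the same 6 libraries and were not tested.

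Of 19 genes listed for plasminogen activation and its control, 13 were tested, 4 were lower and the other 9 were not called. Over all tested genes 26.8% were lower and 25.8% higher. The list's median log2 fold change was -0.27 against -0.04 over all tested genes. Lower were S100A10 (72.7 ± 6.94 against 147 ± 12.3 CPM, log2 fold change -1.01, edgeR adjusted p = 9.3e-05), which with annexin A2 forms a cell-surface docking site for plasminogen, and the plasminogen receptor PLGRKT (-0.89). A2M (-1.89), a broad protease trap, and VTN (-0.49), the matrix protein vitronectin that binds the urokinase receptor, were lower as well. A2M rested on few counts, 7, 6 and 17 with CC-885 against 51, 44 and 24 with DMSO. VTN shares 329 exon bases with another gene on its strand, so its counts are less certain. The call of VTN did not hold without replicate 2 (edgeR adjusted p = 0.094) or 3 (0.0923) of CC-885, without replicate 1 of DMSO (0.134), or under GC and length offsets (0.0947). ANXA2 (-0.09), ENO1 (-0.27) and LRP1 (-0.33), the endocytic receptor that clears urokinase with its inhibitors, were not called, though LRP1 passed without DMSO replicate 2 (-0.53, edgeR adjusted p = 0.00281). Plasminogen itself (PLG) had at most 11 counts in a library.

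Partners through which the urokinase receptor signals, together with endocytic receptors, had 5 higher and 2 lower of 15 tested (median 0.10), beside 25.8% higher and 26.8% lower among all tested genes. ITGB3 (log2 fold change 2.55, 6.74 ± 1.28 against 1.15 ± 0.381 CPM), the beta chain of the vitronectin receptor, the fibronectin receptor chain ITGA5 (1.15) and EGFR (1.09) were higher. The lower genes were VTN, given above, and the integrin chain ITGA3 (-0.44), whose call was lost with any 1 library other than DMSO replicate 2 left out (edgeR adjusted p from 0.0629 to 0.131). ITGB3 shares 2266 exon bases with another gene on its strand, so its counts are less certain.

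Around matriptase, 4 of 23 other membrane-anchored serine proteases were tested, of which 3 were lower and 1 was higher. Among all tested genes 26.8% were lower and 25.8% higher. TMPRSS9 (-1.02), TMPRSS3 (-0.59) and PRSS21 (-0.60) were lower and PRSS27 (0.65) higher. TMPRSS9 shares 313 exon bases with TIMM13 on the opposite strand. Whether strand was used in counting is not stated, so the counts of TMPRSS9 are less certain. The call of PRSS21 was lost with GC and length offsets (edgeR adjusted p = 0.202), and that of PRSS27 without CC-885 replicate 2 (edgeR adjusted p = 0.0698). HPN, the hepatocyte protease hepsin, had 0 counts with CC-885 against 4, 9 and 0 with DMSO, and PRSS8 (prostasin), the partner of matriptase in epithelia, 2, 6 and 4 against 11, 6 and 8. In a list of 17 genes of HGF, MET and matriptase substrates, 5 of 11 tested were lower, ST14 among them, and 1 was higher. The same shares of all tested genes, 26.8% lower and 25.8% higher, stand beside these counts. HGF had no count in any library, and its receptor MET was not called (224 ± 15.5 against 201 ± 19.6 CPM, log2 fold change 0.16, edgeR adjusted p = 0.332). SCNN1A, a sodium channel subunit cut by membrane proteases, was lower (-1.75) and CDCP1, a surface protein cleaved by matriptase, higher (0.72). F2RL1, the receptor PAR2 that matriptase can activate, was lower (-0.90, edgeR adjusted p = 0.0339), a call that was lost with any 1 of the 6 libraries left out (edgeR adjusted p from 0.0535 to 0.119) and under 3 other alternatives.

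All 11 listed AP-1 and ETS factors were higher, while PLAU was lower. These families include factors known to act on the PLAU promoter and enhancer. Whether each listed factor acts on PLAU was not tested. The median log2 fold change of the 11 was 2.25 against -0.04 over all tested genes, of which 25.8% were higher. The list was chosen with earlier results of these data known. JUN (4.35), ATF3 (4.62) and FOSL1 (2.81) had the smallest p. The AP-1 sites known to drive PLAU lie in an enhancer outside the windows printed above and were not examined here.

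**Figure D4:**
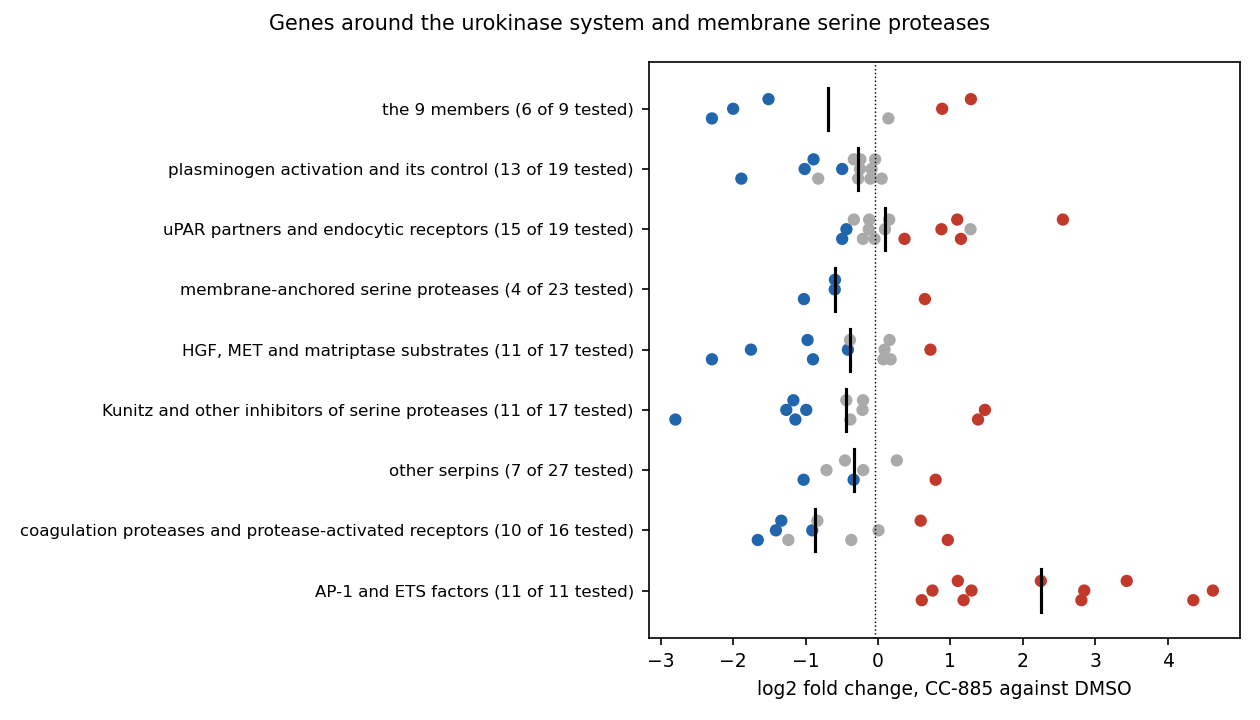
Log2 fold change of CC-885 against DMSO for every tested gene of each list (points, red higher, blue lower, grey not called), with the list's median as a black bar and the median of all tested genes as a dotted line. The 6 tested members lie on both sides of 0, and all 11 AP-1 and ETS factors lie above 0. The list of plasminogen activation lies mostly below 0, with 9 of its 13 tested genes not called.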

How the data were processed

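The authors deposited raw counts per gene for 6 libraries, with no normalization, as read from the values and per the file headers. The libraries were made with a dual-mode kit for mRNA, per the labels' protocols. Aligner, counter and annotation: not given in the sources used here. GRCm38 and mm10, both mouse builds, stand in the submitters' processing notes, yet the identifiers are human Ensembl genes, so only promoter windows carry coordinates. Identifiers were named from a table of gene names (20148) or GENCODE 29 (76), and 39 had none. Of counts from 1 to 19, 66.2% were even, so fragments may have been counted more than once and limits for 0 counts may be too low.

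The fit used edgeR 4.0.16 in R 4.3.3 with TMM factors, no covariate, robust quasi-likelihood fitting and the filterByExpr filter (minimum count 10). Genes with a Benjamini-Hochberg adjusted p below 0.05 over 13444 tested genes were called. Each standard error was approximated as the size of the log2 fold change divided by √F. Exon lengths come from GENCODE 29. The script was tested on simulated data, where false calls were near the nominal share with trended dispersions and above it with gene-wise ones, and most of the smallest changes were missed.

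The members and lists were chosen with earlier results of these data known. Named were all members, 13 genes set in the design (1 is not reported here), up to 3 higher and 3 lower genes per list with the smallest p (not all of them printed), and the 3 nearest profiles; PRDM10, ZBTB44 and APLP2, ENSG00000267748 and C10orf55 were named after their values were seen. Alternatives were DESeq2 1.42.0 size factors and Wald test, library size only, limma-voom (limma 3.58.1), other filters, a replicate block, GC and length offsets, halved counts and each library left out.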

Additional observations from a re-analysis of the deposited data

How the results depend on the processing

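The calls of PLAU, PLAUR, SERPINE2, ST14 and SPINT2, and the lack of a call for PLAT, held under each of the 15 alternatives run, 90 comparisons in all. Their log2 fold changes ranged from -1.69 to -1.30 for PLAU, 0.81 to 1.15 for PLAUR, 1.09 to 1.45 for SERPINE2, -2.37 to -2.10 for ST14, -2.13 to -1.89 for SPINT2 and 0.08 to 0.20 for PLAT. With no filter on low counts 5 members were called lower in place of 3, since SERPINB2 and SPINT1 were then tested. With any library left out, 2 members were called higher and 3 lower. Of 312 recomputed counts and medians of the wider lists 58 moved, counts by more than 1.5 times or medians by more than the SD between CC-885 libraries. With the replicate number as a block (replicate block) 2 members were higher and 3 lower, and 3597 of all genes were higher and 3676 lower, against 3471 and 3598 without it. The block ended the call of F2RL1 (adjusted p = 0.0668) with its log2 fold change at -0.90 in both fits, and same-numbered libraries deviated together only weakly (correlations 0.164, 0.0425 and 0.104), with DMSO replicate 2 correlating best with another number, so the numbers were not taken as pairs. At this depth SERPINB2, SPINT1 and HGFAC could not be measured beyond a few counts.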

Other observations

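Inhibitors of serine proteases outside the urokinase system are given beside the background of all tested genes, of which 25.8% were higher and 26.8% lower. Of 17 listed Kunitz and other inhibitors 11 were tested, 2 were higher and 5 lower (median log2 fold change -0.44, against -0.04 over all tested genes). PI3, the elastase inhibitor elafin, was higher (9.61 ± 0.578 against 3.69 ± 0.190 CPM, SD, n = 3, log2 fold change 1.38, edgeR adjusted p = 3.91e-05). WFIKKN1, a secreted protein with a Kunitz domain (1.99 ± 0.467 against 13.8 ± 0.946 CPM, log2 fold change -2.80), SPINK5 (-1.14), which inhibits skin kallikreins, and APLP1 (-0.99) were lower. Of 27 other serpins 7 were tested, 1 was higher (SERPINB8, 0.80) and 2 were lower (SERPINF1, -1.03, and SERPINB6, -0.34). The call of SERPINB6 was lost with no filter on low counts (edgeR adjusted p = 0.0569) and without any 1 of the CC-885 libraries or DMSO replicate 1 (0.0866 to 0.106). Of 16 genes of coagulation proteases and their receptors 10 were tested, 2 were higher and 4 lower (median -0.87). Lower were F8 (-1.66), the thrombin receptor F2R (-1.34) and the anticoagulant cofactor PROS1 (-1.41), and tissue factor F3 was higher (0.59).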
